A study of Mus musculus with 2 samples.

Results

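DNase-seq was carried out on limbs of mouse embryos of strain B6NCrl at 14.5 days, with males and females pooled, in 1 group of 2 biological replicates. The members described here are the broad shared hotspots: hotspots at least 1000 bp wide that overlap, by at least 1 bp, such a hotspot of the other replicate, on chromosomes 1 to 19 and X. A hotspot is a region in which the authors called an excess of DNase I cuts. In replicate 1 there were 4121 members among 185987 hotspots (2.22%), and in replicate 2 there were 4164 among 181188. Coordinates are those of replicate 1 on mm10 (GRCm38). The labels give both replicates the same donor identifier and list instrument models for replicate 2 only. They name no treatment, mutation or other tissue, and the read number behind each library was not known here. The members were selected on width, measured in these same libraries, so their widths and peak contents are given as a description with no test.

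DNase I cuts DNA that is not wrapped tightly in nucleosomes, so clusters of cuts mark promoters, enhancers and insulators. Most such sites span about a nucleosome, and a wide hotspot forms where several sites lie close together or where a long stretch, such as a CpG island at a gene start, is open throughout. CpG islands are stretches where the CpG dinucleotide, elsewhere depleted by mutation of methylated cytosine, is kept. In the embryonic limb, mesenchyme, cartilage, tendon, muscle, skin, vessels and blood are mixed, and a region open in few cells cannot be told apart from one that is weakly open in many.

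The range of sequence under these regions is shown by 6 peaks of 150 bp, each outside annotated exons and matched by a peak of replicate 2. CpG dinucleotides are in capitals and the plus strand of mm10 is given, 5′ to 3′. Those of Tnrc18 (chr5:142817796-142817945), Id2 (chr12:25098836-25098985) and Evx2 (chr2:74658436-74658585) come from the 3 widest members, all at coding gene starts. That of Dleu2 (chr14:61682776-61682925) comes from a wide member at a noncoding gene start, and those near Irf2bp2 (chr8:126666456-126666605) and near Ppara (chr15:85671136-85671285) from wide members with no annotated gene start.
Tnrc18: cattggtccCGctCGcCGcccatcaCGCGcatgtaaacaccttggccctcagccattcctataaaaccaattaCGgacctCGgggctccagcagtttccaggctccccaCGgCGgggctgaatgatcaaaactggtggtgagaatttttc
Id2: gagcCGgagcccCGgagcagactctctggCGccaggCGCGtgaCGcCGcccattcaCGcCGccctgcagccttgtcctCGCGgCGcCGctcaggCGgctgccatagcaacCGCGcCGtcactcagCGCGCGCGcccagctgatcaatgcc
Evx2: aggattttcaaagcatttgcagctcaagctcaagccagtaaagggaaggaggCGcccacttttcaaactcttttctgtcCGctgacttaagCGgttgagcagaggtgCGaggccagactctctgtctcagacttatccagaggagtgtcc
Dleu2: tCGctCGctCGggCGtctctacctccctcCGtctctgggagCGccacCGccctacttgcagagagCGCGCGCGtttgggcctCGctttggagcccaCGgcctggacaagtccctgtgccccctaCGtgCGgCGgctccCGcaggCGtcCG
near Irf2bp2: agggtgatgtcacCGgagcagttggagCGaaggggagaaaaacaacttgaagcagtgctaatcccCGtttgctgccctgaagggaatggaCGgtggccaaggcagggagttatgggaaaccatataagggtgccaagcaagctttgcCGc
near Ppara: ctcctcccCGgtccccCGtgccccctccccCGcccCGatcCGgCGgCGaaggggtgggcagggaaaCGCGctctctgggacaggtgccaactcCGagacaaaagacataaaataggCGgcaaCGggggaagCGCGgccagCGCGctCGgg
The Id2 peak holds 21 CpGs, the Dleu2 peak 19 and the peak near Ppara 17. The Tnrc18 peak holds 9, the peak near Irf2bp2 5 and the Evx2 peak 4. Over the whole members, the ratio of observed to expected CpGs was 0.64 at Tnrc18, 0.66 at Id2, 0.71 at Evx2, 0.73 at Dleu2 and 0.87 near Ppara, against 0.30 near Irf2bp2.

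The members had a median width of 1613 bp in replicate 1, with quartiles of 1329 and 1996 bp and a range of 1001 to 8620 bp. The median width in replicate 2 was 1266 bp, and the widest member there measured 4604 bp. They covered 7.18 Mb in replicate 1, which is 11.7% of all hotspot sequence, and 5.75 Mb in replicate 2, which is 11.2%. Replicate 1 was the wider of the pair in 3582 members (86.9%), with a median ratio of 1.18. Across the 4121 members the widths of both replicates had a Spearman rho of 0.58, as a description of regions that share library and caller. Replicate 1 had more broad hotspots altogether, 9424 against 4457, so 93.4% of the broad hotspots of replicate 2 were shared and 43.7% of those of replicate 1.

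**Figure D1:**
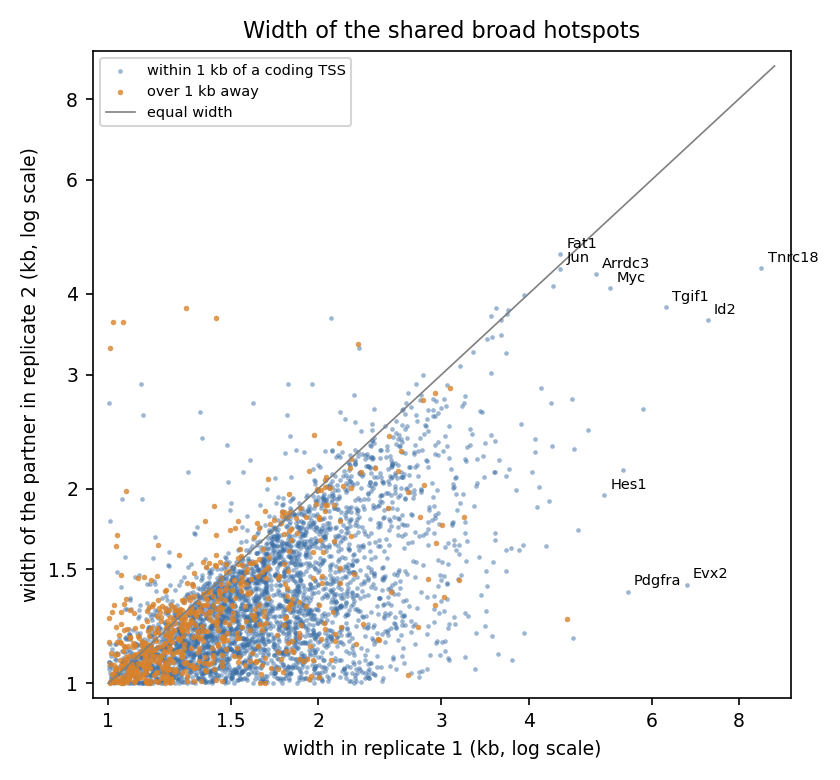
Width of each of the 4121 shared broad hotspots in replicate 1 (horizontal axis, kb, log scale) and of the broad hotspot of replicate 2 that overlaps it most (vertical axis, kb, log scale), by distance from the nearest protein-coding TSS. Most points (86.9%) lie under the line of equal width, and Evx2 and Pdgfra lie far below it.

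A single region in replicate 1 was often several in replicate 2. Of the members, 1712 lay over more than 1 hotspot of replicate 2, up to 10, and 162 were covered by broad hotspots of replicate 2 over less than 50% of their length. Among the 147 members of 3000 bp or more, 90.5% lay over several hotspots of replicate 2. At the threshold, the 3 narrowest members measured 1001 bp each, 1 of them at Chrnb1, which encodes a muscle acetylcholine receptor subunit. Just below it, 764 hotspots of replicate 1 were narrower than 1000 bp but overlapped a broad hotspot of replicate 2, the widest at 998, 998 and 997 bp, the last at Dlg4.

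The widest member lay at Tnrc18 (chr5:142815446-142824065), where it measured 8620 bp (replicate 1) and 4384 bp (replicate 2), with 15 peaks in each. The second lay at Id2, which encodes an inhibitor of basic helix-loop-helix factors (chr12:25094159-25101377, 7219 and 3640 bp, 14 and 13 peaks). The hotspot of 3640 bp in replicate 2 lay upstream of the gene, and the widest over an Id2 TSS there measured 2368 bp. The next widest member was at Evx2, a homeobox gene beside the HoxD cluster (chr2:74653609-74660342), which measured 6734 bp in replicate 1 and was 10 separate hotspots in replicate 2, the widest of them 1421 bp. Its peaks were among the weakest of all members of 3000 bp or more, with signals of up to 82 and 49 in replicates 1 and 2. By contrast the strongest Id2 peak had 138 and 115. Signals are the authors' whole numbers, which never exceeded 148 in these libraries and were read only within a library.

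The other 7 of the 10 widest members all lay at coding gene starts. Tgif1, a homeobox repressor in Tgf-beta signalling, had 6293 and 3820 bp, where here and below paired values are those of replicates 1 and 2. Mex3b, which encodes an RNA-binding protein, had 5828 and 2653 bp. Pdgfra, the receptor that marks much of the embryonic mesenchyme, had 5543 and 1386 bp, and 7 hotspots of replicate 2 lay within it. Hivep1, which encodes a zinc finger protein, had 5453 and 2139 bp. The proto-oncogene Myc had 5239 and 4086 bp, Hes1, a Notch effector, 5134 and 1953 bp, and Arrdc3, an arrestin-domain gene, 4996 and 4288 bp. Of these 10, the region at Arrdc3 differed least in width between the replicates and that at Evx2 most.

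The members held 12115 peaks of replicate 1, 5.81% of its peaks, and those of replicate 2 held 10771, or 5.48%. The mean was 2.94 peaks per member in replicate 1 and 2.59 in replicate 2. In replicate 1, 385 members held 1 peak, 471 held 5 or more and 12 held 10 or more. Dusp4, which encodes a MAP kinase phosphatase, stood among the richest with 11 peaks in replicate 1 and 8 in replicate 2 over its 4864 bp. Igf2bp1, an RNA-binding protein of embryonic tissues, had 10 and 9, and Phf12, a PHD finger gene, had 10 and 8. Centres of adjacent peaks were a median of 460 bp apart in replicate 1, and 420 bp in the other. Counted over the same region, both replicates had the same number of peaks in 1871 members, replicate 1 more in 841 and replicate 2 more in 1409, although replicate 1 has more peaks in all.

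**Figure D2:**
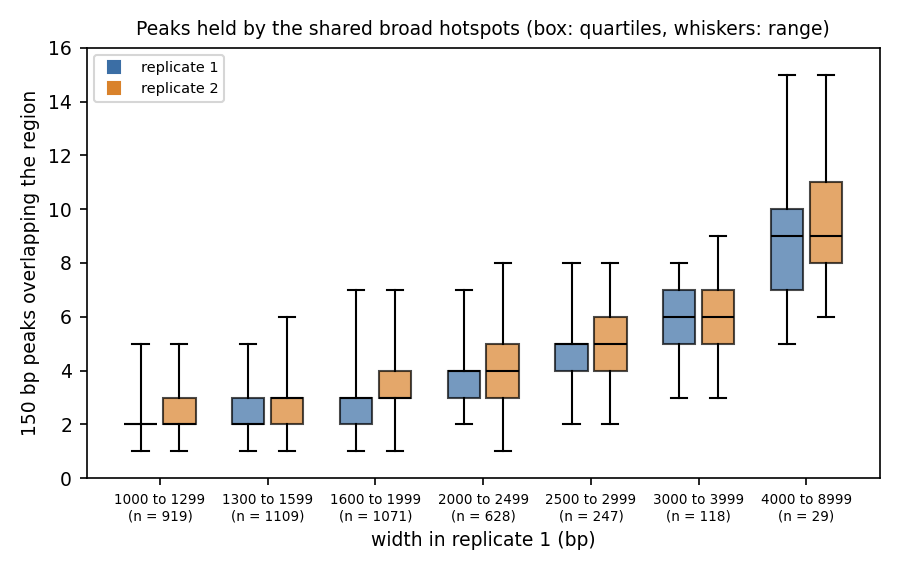
Number of 150 bp peaks overlapping each shared broad hotspot, by its width in replicate 1 (bp), for both replicates; boxes are quartiles with the median line and whiskers the full range. The median rises from 2 peaks at 1000 to 1299 bp to 9 peaks at 4000 bp and above, in both replicates.

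The members were also strong. The strongest peak of a member had a median signal of 125 in replicate 1 and 100 in replicate 2, where the median over all peaks was 42 and 31. That strongest peak was in the highest decile of all peaks (signals from 90 upwards in replicate 1 and from 67 in replicate 2) in 90.8% and 89.5% of members. The deposited hotspot value, a −log10 q-value with a ceiling of 100, was at the ceiling in 99.8% and 99.3% of members, against 33.0% and 28.8% of all hotspots. Width, signal and q-value come from the same reads and are not independent. Some wide members had a strongest peak below that highest decile in both replicates, though above the median over all peaks. Among members of 3000 bp or more the lowest strongest-peak signals were at Tox, a thymocyte HMG-box factor, with 78 and 60, at Evx2, at Rragd, a Rag GTPase, with 84 and 58, and at Fst, an activin antagonist, with 85 and 49.

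Gene starts lay in most members. A transcription start site (TSS) of a protein-coding gene in GENCODE M21 lay in 3398 of the 4121 (82.5%), against 6.58% of the 116115 narrower shared hotspots and 72.8% of the 5303 that were broad in replicate 1 and not shared as broad. Since a longer region has more room for a TSS, the share of sequence was measured as well: 59.1% of the sequence of members lay within 500 bp of a coding TSS, against 58.0% in the hotspots broad in replicate 1 and not shared as broad and 13.9% in narrower shared hotspots. In replicate 2 coordinates 80.8% of members held a coding TSS. A single coding gene started in 2863 members, 519 held starts of 2 genes and 16 held more. Coding genes on opposite strands started in 504 of the 3398 (14.8%). The largest number was 4 annotated genes at Zc3h11a and Zbed6 (chr1:133660467-133661878), where Zbed6 lies inside its host gene. Other members with 3 included Rabgap1, Zbtb26 and Zbtb6 (1288 and 1161 bp) and Atf5, Il4i1 and Nup62 (1892 and 1700 bp).

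The regions reached further into the gene than upstream of it. In the 2863 members with a single coding gene, the hotspot ran a median of 672 bp upstream and 1002 bp downstream of the outermost TSS inside it, and 71.8% of them ran further downstream. At 500 bp upstream 70.7% of these hotspots still covered the position, and at 500 bp downstream 91.6%. At 1000 bp the shares were 19.9% upstream and 50.2% downstream. Annotated starts further inside the gene count here as part of the gene and lie downstream by construction.

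**Figure D3:**
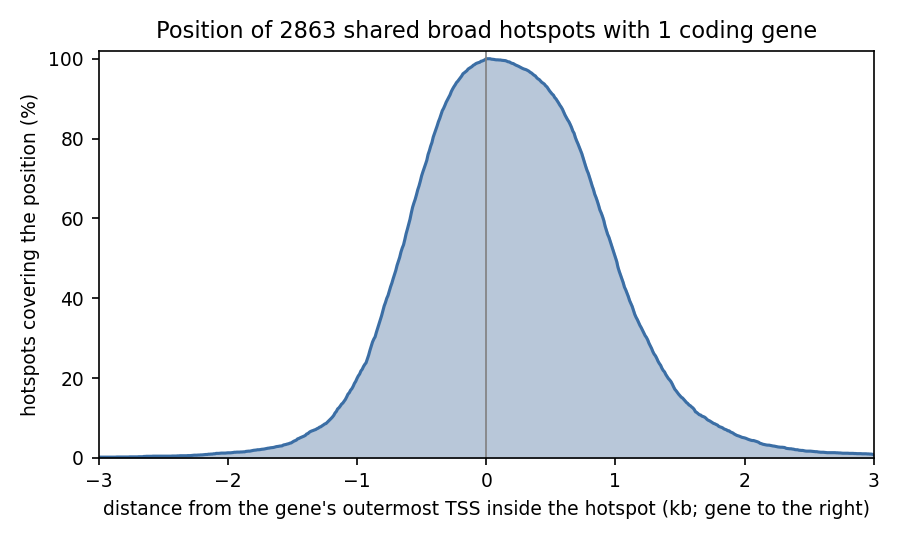
Share of 2863 shared broad hotspots with 1 coding gene (vertical axis, %) that cover each position relative to the gene's outermost TSS inside the hotspot (horizontal axis, kb, gene to the right). At 1 kb the share is 50.2% on the gene side and 19.9% on the upstream side.

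Gene starts and CpG content both went with width. Of members of 1000 to 1499 bp, 71.0% held a coding TSS, and the shares at 1500 to 1999 bp, 2000 to 2999 bp and 3000 bp or more were 88.7%, 92.2% and 95.2%. The ratio of observed to expected CpGs had a median of 0.72 in members and 0.25 in narrower shared hotspots. Part of that gap went with gene starts: among regions with a coding TSS the medians were 0.74 and 0.63, and among regions over 1 kb from every coding TSS they were 0.37 and 0.23. Median GC content was 57.8% in members and 47.9% in narrower shared hotspots. Repeats marked in the reference made up a median of 8.11% of a member, and no member was 50% repeat or more.

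**Figure D4:**
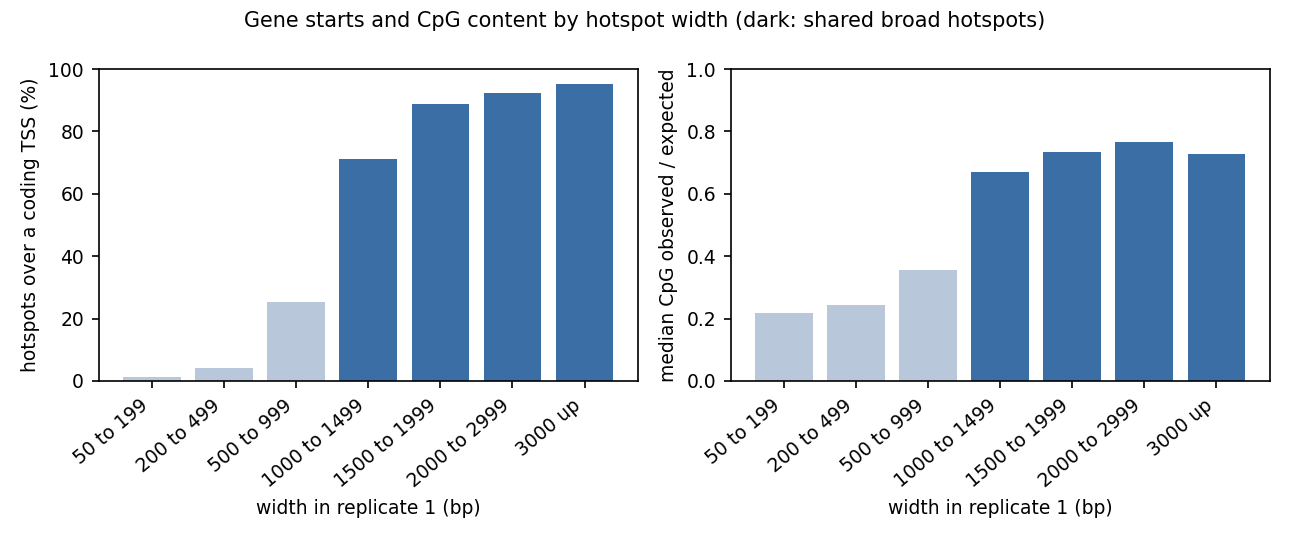
Percentage of hotspots over a protein-coding TSS (left, %) and median ratio of observed to expected CpGs (right), by width in replicate 1 (bp); pale bars are narrower shared hotspots and dark bars the shared broad hotspots. The TSS share goes from 1.25% in the narrowest bin to 95.2% at 3000 bp and above, and the CpG ratio from 0.22 to 0.73, with its highest value, 0.76, at 2000 to 2999 bp.

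Seen from the genes, 3869 of 21755 protein-coding genes (17.8%) had a shared broad hotspot over a TSS. Of the 13804 genes with any shared hotspot over a TSS, called open below, that was 28.0%. In replicate 1 alone 36.7% of genes had a hotspot of at least 1000 bp there, and in replicate 2 alone 17.9%. The percentage broad rose with the CpG ratio around the outermost TSS, from 1.10% in the lowest decile of genes to 41.6% in the highest, while the percentage open rose from 6.25% to 96.4%. Among open genes alone it was 17.6% in the lowest decile and 43.2% in the highest, and lower than in the lowest decile in deciles 2 to 5.

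Gene families differed widely around that 17.8%, and the counts below are a description without a test. The highest shares were those of the Tead, Fos and Jun, and housekeeping lists. Tead, Yap and Vgll genes, effectors of Hippo signalling, had a broad hotspot in 6 of 10: Yap1 measured 2642 bp and 1341 bp in replicates 1 and 2, and its partner coactivator Wwtr1 2397 and 1866 bp. Fos, Jun and Atf genes, which encode bZIP factors, had 8 of 14, led by Jun with 4443 and 4375 bp, nearly equal in both replicates. Id, Hes and Hey genes, inhibitors and repressors of the helix-loop-helix class, had 7 of 13, with Hes6 at 2029 and 1085 bp and Hey2 at 1792 and 1239 bp after Id2 and Hes1. Klf and Sp zinc finger genes, whose products bind GC boxes, had 13 of 26, led by Klf12 (4169 and 2861 bp), Klf13 (3921 and 1634 bp) and Klf10 (3585 and 2121 bp). Cyclin and Cdk genes had 19 of 36, among them Ccnd2 with 2757 and 1539 bp and Ccne2 with 2671 and 1996 bp, cyclins of the G1 phase and its exit. The widest region of that list, 3400 bp in replicate 1, is shared by the divergent starts of Cdk5 and Slc4a2.

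Housekeeping genes were often broad, 11 of 20, but other families that every cell uses had shares nearer to that of all genes. Gapdh, a glycolytic enzyme, had 2933 and 2266 bp, Actb, cytoplasmic actin, 1595 and 2212 bp, and Polr2a, the largest RNA polymerase II subunit, 2140 and 1933 bp. Cytosolic ribosomal protein genes were open in 77 of 80 and broad in 16, led by Rpl7 with 2704 and 1979 bp. Mitochondrial ribosomal protein genes were open in 78 of 78 and broad in 14, and proteasome genes were open in 37 of 39 and broad in 6. As shares of all genes in each list these are 20.0%, 17.9% and 15.4%, close to the 17.8% of all coding genes and below the 28.0% of open genes. Open ribosomal protein genes had a median width of 1076 bp in replicate 1, just over the threshold, but 697 bp in the other. With replicate 1 alone, these lists stood well above the 36.7% of all genes, at 53.8%, 57.7% and 59.0%.

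**Figure D5:**
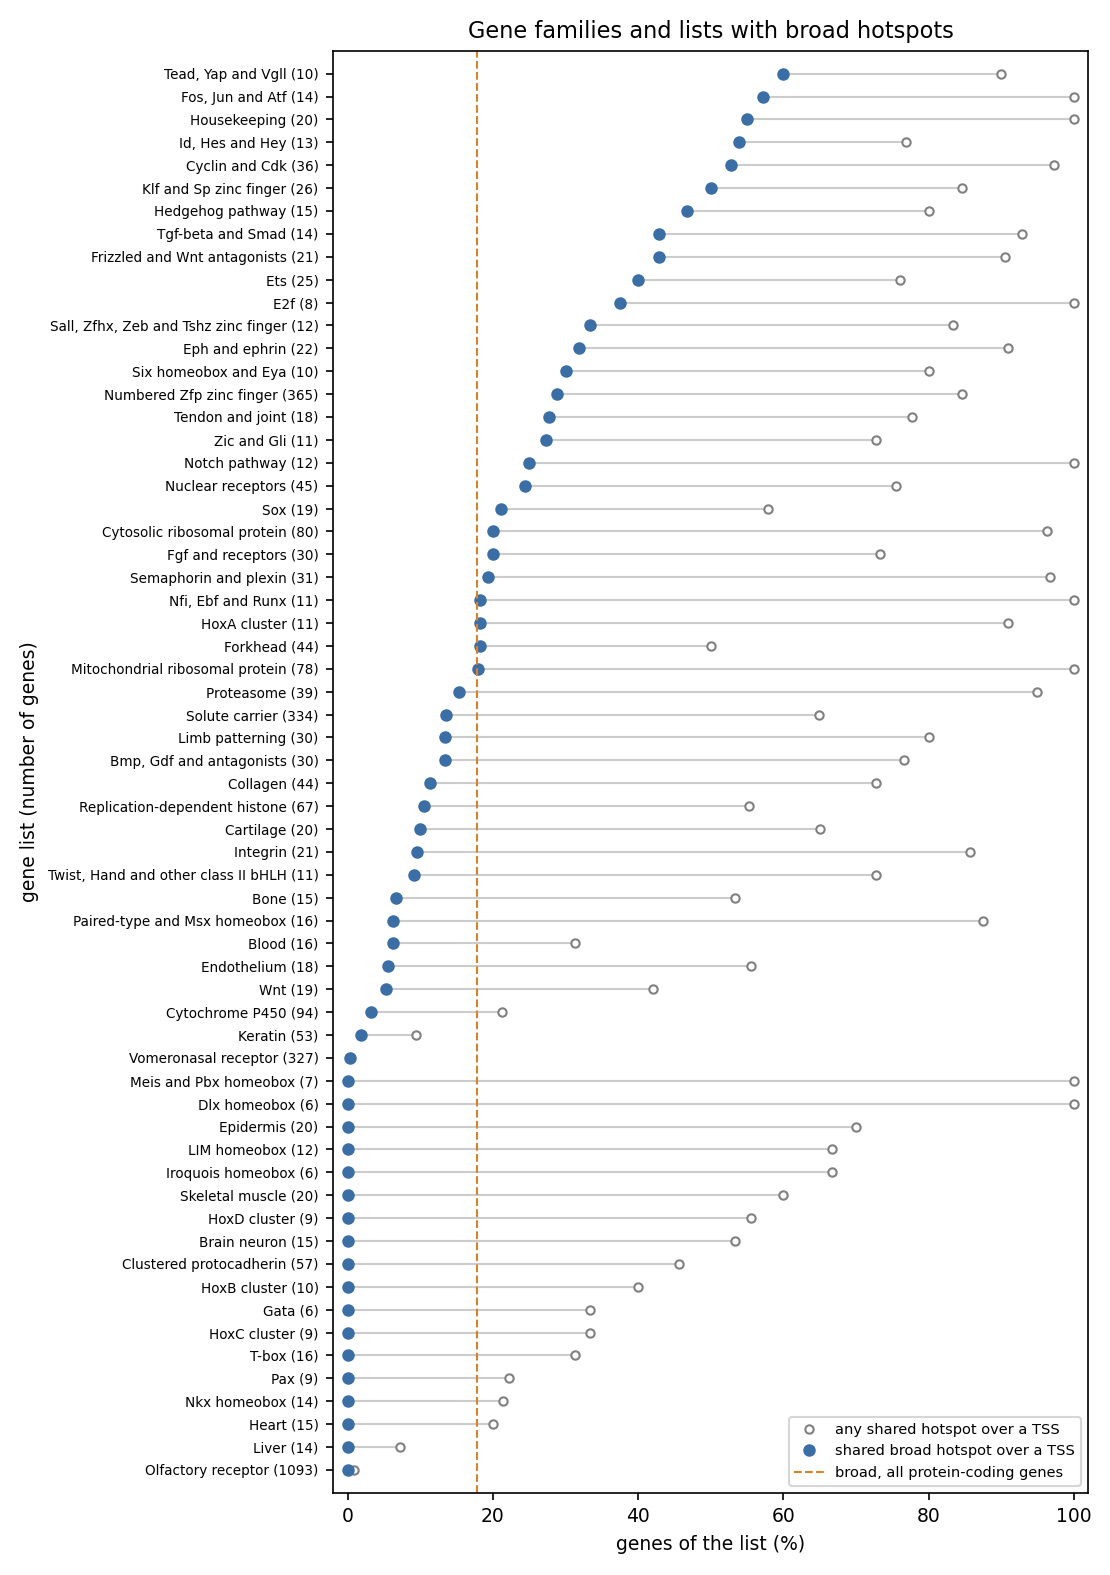
Percentage of the genes of each family or list (number of genes in brackets) with any shared hotspot over a TSS (open circles) and with a shared broad hotspot (filled circles); the dashed line marks the 17.8% of all protein-coding genes. Lists run from Tead, Yap and Vgll genes at 60.0% broad to lists at 0%, some of which, such as Dlx and Meis and Pbx genes, are open in every member.

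Signalling genes were described by pathway, beside 17.8% of all coding genes and 28.0% of open genes. Broad shares were 46.7% for the Hedgehog list, 42.9% for the Frizzled and the Tgf-beta lists and 31.8% for the Eph list. They were 13.3% for the Bmp list and 5.26% for Wnt ligands. The Fgf (20.0%) and semaphorin (19.4%) shares were close to that of all genes and fell below it under some alternative settings. Frizzled genes and Wnt antagonists, open in 19 of 21, were broad in 9, led by the receptors Fzd2 (3945 and 3987 bp), Fzd8 (3715 and 3245 bp) and Fzd7 (2038 and 1965 bp). Wnt ligands, open in only 8 of 19, were broad in 1, Wnt5a (1841 and 1933 bp), which guides limb outgrowth. The Hedgehog pathway list had 7 of 15: the receptor Ptch1 (2996 and 2664 bp), the co-receptors Gas1 (2370 and 2154 bp) and Cdon (1697 and 1727 bp), Sufu, and the transcription factors Gli1, Gli2 and Gli3. The widest members over Ptch1, Gli1 and Gli2 starts lay at internal starts, that of Gli2 with a CpG ratio of 0.24. With outermost TSSs only, 33.3% of the list was broad. Shh, the ligand that patterns the limb, had no shared hotspot over its TSS. The Tgf-beta and Smad list had 6 of 14, with the receptor Tgfbr1 at 2547 and 2170 bp and the signal carrier Smad5 at 2051 and 1902 bp. In the Bmp and Gdf list, which mixes ligands, receptors and antagonists, 4 of 30 were broad: the receptors Bmpr2 (2252 and 2790 bp) and Bmpr1a (2237 and 1038 bp), the protease Bmp1 (1749 and 1394 bp) and the antagonist Nog (1227 and 1326 bp). The Fgf list had 6 of 30, including the feedback inhibitors Dusp6 (3629 and 2215 bp) and Spry2 (2284 and 3299 bp), the receptor Fgfr2 (2444 and 1663 bp) and the ligands Fgf9 and Fgf10 (2710 and 1039 bp for Fgf10). Ligands of other pathways were also broad, among them Tgfb3, the Notch ligand Jag1 (1692 and 1584 bp), 3 ephrins in the Eph and ephrin list (7 of 22), and semaphorins such as Sema4c (2946 and 1153 bp) in a list with 6 of 31. The Fgf10 region lay at an internal start, and with outermost TSSs only, 13.3% of the Fgf list was broad. The strongest Fgf10 peak, with a signal of 61 and 52, was well below the median of 125 and 100 over members.

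Several developmental families had no member at all. No gene of the HoxB, HoxC, HoxD, Dlx, Iroquois, Meis and Pbx, LIM, Nkx, Pax, T-box or Gata lists had a shared broad hotspot over a TSS, although all 6 Dlx genes, all 7 Meis and Pbx genes and 8 of 12 LIM genes were open. Each list is short (6 to 16 genes), and these counts were not tested against the 17.8% of all genes. Other homeobox lists did hold members. The list of Six5 and its relatives with the Eya cofactors had 3 of 10: Six5 (2544 and 1752 bp), Six4 (2072 and 1770 bp) and Eya1 (1656 and 1008 bp). In the HoxA list, open in 10 of 11, Hoxa7 had 2355 and 1968 bp and Hoxa9 1157 and 1056 bp, both at internal starts. The paired-type and Msx list was open in 14 of 16 and broad in 1, Prrx1, a marker of limb mesenchyme. The Prrx1 region measured 2225 bp in replicate 1, its broad partner 1317 bp, and the hotspot of replicate 2 over a Prrx1 TSS 942 bp, so the list had 0 broad genes in replicate 2 coordinates. Median CpG ratios at the TSS, over the open genes of each list, were mixed among the lists without a member. They were 0.83 for Iroquois, 0.75 for T-box, 0.72 for Dlx, 0.69 for Nkx, 0.64 for HoxD and 0.62 for HoxB genes. The others were 0.60 for Pax, 0.58 for Meis and Pbx, 0.57 for LIM and HoxC and 0.50 for Gata genes. The paired-type and Msx list had 0.67. All broad genes had 0.78, and open genes without a broad hotspot 0.67. Some of these lists have few open genes. Counts differed with 1 replicate alone. Replicate 1 alone was broad at 5 paired-type and Msx (31.25%), 3 T-box (18.75%) and 2 Meis and Pbx genes (28.6%). It was also broad at 1 gene each of the Dlx, Iroquois, LIM and Nkx lists. All these shares were below the 36.7% of all genes in replicate 1. Replicate 2 alone was broad at 1 gene each of the HoxC, T-box and Meis and Pbx lists. Other developmental regulators were broad in both replicates, among them Sox12 (4080 and 2388 bp), Sox11 (4042 and 2125 bp) and Foxo3 (3528 and 3697 bp). So were Twist1 (2789 and 1040 bp), Zeb1 (2960 and 1163 bp) and the retinoic acid receptor Rarg (2549 and 2473 bp, at an internal start). Of their lists, 21.1% of Sox, 18.2% of forkhead and 24.4% of nuclear receptor genes were broad. The list with Zeb1 had 33.3% and that with Twist1 9.09%. The Sox and forkhead shares fell below that of all genes under some alternative settings.

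Of the 30 limb patterning genes, 24 were open and 4 were broad: Ptch1, Fgf10, Prrx1 and Gli3 (1347 and 1356 bp), the last a repressor that restricts digit number. Hoxa13, a gene of the hand and foot plate, was 1345 bp wide at its start in replicate 1 but 242 bp in the other, so it was not a member. Pitx1, a hindlimb gene, had 904 and 366 bp, and Tbx4, also of the hindlimb, 799 and 540 bp. Tbx5, of the forelimb, and Hoxd13 had no shared hotspot over a TSS. For cartilage 2 of 20 were broad, Sox6 and Wwp2 (1480 and 1092 bp). Sox9, the master regulator of cartilage, had 1288 and 748 bp. For bone 1 of 15 was broad, the stress response factor Atf4 (1593 and 1420 bp), and Runx2, the osteoblast regulator, had 855 and 1217 bp. Tendon and joint genes had 5 of 18, among them Col12a1, a collagen of dense connective tissue (3472 and 1490 bp), Osr2, of forming joints (1819 and 1773 bp), and Dcn, a small proteoglycan (1353 and 1061 bp). The Dcn region had a CpG ratio of 0.25, far below the median of 0.74 for members with a coding TSS. Of all coding genes 17.8% were broad, and of open genes 28.0%. The limb patterning, cartilage and bone lists lay below both shares, with 16.7%, 15.4% and 12.5% of their open genes broad. The tendon and joint list lay above both, with 27.8% of its genes and 35.7% of its open genes broad. Each list is short, and the counts were not tested against the shares of all genes.

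The lists of other cell types had few or no broad genes, where 17.8% of all coding genes and 28.0% of open genes were broad. These lists are short, and their counts were not tested against those shares. Median CpG ratios over the open genes of the muscle, epidermis, endothelium, blood, liver, heart and neuron lists ran from 0.22 (liver) to 0.62 (neuron). All open genes without a broad hotspot had 0.67. Skeletal muscle genes were open in 12 of 20 and epidermis genes in 14 of 20, and both had 0 broad, with Myod1 at 298 and 316 bp and Trp63 at 150 and 229 bp. Endothelium had 1 of 18, Notch4 (1765 and 1078 bp), where the hotspot lies at internal starts near the end of the gene. Blood had 1 of 16, the transferrin receptor Tfrc. Liver genes were open in 1 of 14 and heart genes in 3 of 15, both with 0 broad, and brain neuron genes in 8 of 15 with 0 broad. Clustered protocadherin genes, open in 26 of 57, had 0 broad, and so did olfactory receptor genes, open in 10 of 1093. The single broad vomeronasal receptor gene, Vmn1r4, has an annotated start in the region over the start of Nt5c3 (1181 and 1164 bp).

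Members away from coding genes numbered 639 (15.5%), over 1 kb from every coding TSS. Of these, 111 held the TSS of a noncoding gene and 528 held none. They were narrower, with a median of 1312 bp against 1676 bp for members with a coding TSS, and their strongest peaks were weaker, with a median of 101 and 80 against 128 and 104. They broke up less in replicate 2: 23.9% lay over several hotspots there, against 45.1% of members with a coding TSS. That share was 90.5% among members of 3000 bp or more, and the distal and TSS members were not matched for width. Median repeat content of the 639 distal members was 10.2%, and 10.7% of their sequence was exonic.

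The widest of them, chr1:162217079-162221614, lay inside Dnm3 over Dnm3os, a noncoding transcript that hosts Mir199a-2, and held the annotated starts of both. It measured 4536 bp in replicate 1 and lay over 7 hotspots of replicate 2, the widest broad partner 1258 bp, with 8 and 10 peaks. Its CpG ratio was 0.29, between the quartiles of 0.26 and 0.52 over members more than 1 kb from every coding TSS. Its GC content was 39.6%, where the median over those members was 49.9%. Next came chr8:126664916-126668148, 70.9 kb from Irf2bp2, with 3233 and 1810 bp, 7 and 6 peaks and no annotated start. The region near Zfp503 (chr14:21984302-21987483) lay in the gene body, 2.12 kb from the TSS, with 3182 and 1445 bp. The Dleu2 region (chr14:61680555-61683637) was 1 hotspot in each replicate, 3083 and 2864 bp, with 5 peaks in each and a CpG ratio of 0.73.

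The remaining wide distal members were of mixed composition. That at Gm4258, 214 kb from Ptprc, had 3023 and 1358 bp and a CpG ratio of 0.35. That at B330016D10Rik, 6.42 kb from Spen, had 3009 and 1756 bp and a ratio of 0.86, and that near Ppara, 62.5 kb away and with no annotated start, had 2950 and 1646 bp and a ratio of 0.87. The region at Gm31763, 29.5 kb from Reep3, had 2941 and 2810 bp, and the region inside Zfp608, 4.41 kb from its TSS, had 2933 and 1320 bp and 8 and 7 peaks. The last, at 2810410L24Rik, had 2869 and 1448 bp with 3 and 5 peaks. These 10 include both island-like sequence far from coding genes and clusters of peaks in CpG-poor sequence.

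Short motifs were counted in the 150 bp peaks of replicate 1, on both strands, as letters only. The GC box GGGCGG was in 49.7% of 7719 member peaks within 500 bp of a coding TSS and in 34.1% of 13861 such peaks in narrower shared hotspots. Over 1 kb from coding starts the shares were 17.2% of 2441 and 5.31% of 107091, and over all peaks 10.7%. The ETS letters CCGGAAG were in 8.01% and 6.39% of TSS peaks and 1.80% and 0.97% of distal peaks. Several letters without CpG were less frequent in members: CAGCTG, an E-box, was in 7.79% and 13.7% of TSS peaks and 15.1% and 19.4% of distal peaks, TGANTCA, an AP-1 site, in 1.81% and 3.48% and in 4.18% and 6.52%, and CAGATG, another E-box, in 5.14% and 9.08% and in 14.4% and 19.5%. The CCAAT letters differed little, with 21.9% and 20.3% at TSSs. Of the 16 motifs searched, 6 were more frequent in members at TSSs and 10 less frequent, and away from TSSs 4 were more and 12 less frequent. Member peaks are richer in GC and CpG, and the part of base composition in these shares was not tested.

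Most members had no other close by. The median gap between neighbours was 217 kb. In all, 179 of 4101 gaps were 10 kb or less, and 11 runs of 3 members were found at that spacing, with none longer. Chromosome X held 76 members, and 59 of its 948 coding genes (6.22%) were broad, against 18.3% of autosomal genes. As a share of open genes this was 13.3% against 28.5%. Its widest members were at Cask, a synaptic scaffold gene (3421 and 1369 bp), Kdm6a, a histone demethylase gene (3066 and 1217 bp), and Morf4l2 (3056 and 1350 bp).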

How the data were processed

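DNase-seq of 2 libraries was used, 1 per biological replicate. For each, the authors deposited peaks of 150 bp with a whole-number signal, treated as a score of unstated scaling, and hotspots with a display score, not used here. Hotspots also carry a deposited −log10 q-value, from 1.30 to a ceiling of 100. Build mm10 is given per the labels; no source used here states the aligner, caller, filters or read numbers. No interval or detection limit was therefore computed.

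Hotspots of at least 1000 bp on chromosomes 1 to 19 and X were intersected between replicates (1 bp or more). TSSs are the 5′ ends of all transcripts in GENCODE M21. Sequence, repeat masking and CpG ratios (observed CpGs times length over C times G) come from the RefSeq copy of GRCm38. Python 3.11.15, numpy 2.4.6 and pandas 2.3.3 were used, and the interval code was checked against brute force on simulated regions. Peak counts per member use any overlap.

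Members, 62 gene lists and 16 motifs were chosen with earlier results of these data known, and no test was run, since there is 1 group and width chose the members. Both replicates carry 1 donor identifier, so the spread between them may be technical. Named by rule were the 10 widest members, the 10 with most peaks, the 10 widest distal ones, the 10 with most genes, up to 4 members per list by width, the 3 regions on each side of the threshold, and Hoxd13, Hoxa13, Tbx4, Tbx5, Pitx1, Sox9, Shh, Gli3, Runx2, Myod1, Trp63 and Actb. Sufu, Nup62, Tgfb3, Fgf9, the weakest wide members and those of chromosome X were named after their values were seen. The liver gene Tf matched no gene symbol. Some regions are not reported here. Alternatives were another overlap rule, replicate 2 coordinates, each replicate alone, other width minimums and other TSS definitions.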

Additional observations from a re-analysis of the deposited data

Results flagged for a closer look

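Hotspots of 1000 bp or more shared by both replicates also occurred on sequences outside the comparison. There were 8 of them, from 12 such hotspots in replicate 1 and 10 in replicate 2, on chromosome Y, the mitochondrial genome and unplaced or unlocalised sequence. With no control sample, a count above 3 was the reason to list them.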

How the results depend on the processing

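The number of members was 9424 and 4457 with replicate 1 or replicate 2 alone, 7216 with a width minimum of 800 bp and 1005 with 1500 bp. The median width of 1613 bp became 1266 bp in replicate 2 coordinates, 1250 to 1379 bp with 1 replicate left out, and 1392 and 2115 bp at the 800 and 1500 bp minimums. Mean peaks per member, 2.94, became 2.87 when 50% of the region had to be covered, 2.59 in replicate 2 coordinates, 2.58 to 2.63 with a replicate left out, and 2.59 and 3.94 at the 2 minimums. The share with a coding TSS, 82.5%, was 80.8% in replicate 2 coordinates, 77.0% to 77.6% with a replicate left out, 74.9% and 90.3% at the minimums, 72.9% with outermost TSSs and 83.7% with windows of 500 bp. The distal share, 15.5%, was 18.8% to 20.0% with a replicate left out, 22.8% and 8.36% at the minimums, 23.6% with outermost TSSs and 12.3% with every gene type. Genes with a broad hotspot, 17.8%, were 17.9% and 36.7% with 1 replicate left out, 27.9% at 800 bp and 4.87% at 1500 bp. The CpG ratio of 0.72 was 0.75 at 1500 bp and 0.70 to 0.73 with a replicate left out. Other values of these 7 results moved by less than 1 SD between the replicates' own values (n = 2), an SD that is wide for some. Of the 496 list values under the alternatives, 98 moved by more, for example HoxA from 18.2% to 0% with outermost TSSs and, at 1500 bp, Id, Hes and Hey from 53.8% to 15.4% and Zic and Gli from 27.3% to 0%. Of the 62 lists, 27 lay above the share of all genes, and 21 to 27 did under the alternatives. Without replicate 2, 57 of 62 lists stayed on the same side, and 52 did at 800 bp and at 1500 bp. No paired analysis was possible because there is 1 group.

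Depth is unknown, so how far read number sets hotspot width, and with it the 9424 against 4457 broad hotspots, was not tested. Peak signals near the upper end of their range cannot rank the strongest members.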

Other observations

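Some regions were broad in 1 replicate and nearly closed to hotspots in the other. With a threshold of 25% coverage, chosen after the values were seen, 133 of the 9424 broad hotspots of replicate 1 (1.41%) were covered less than that by any hotspot of replicate 2, and 14 of the 4457 of replicate 2 (0.31%) by replicate 1. Wide ones in replicate 1 at developmental regulators included those near Sp9 (8156 bp, 18 peaks against 1), at Dlx6 (5833 bp, 13 against 1), at Msx1 (3171 bp, 6 against 1), at Ebf3 (3128 bp, 5 against 1), at Zic4 (2722 bp, 7 against 0) and near Tbx4 (2605 bp, 7 against 0). The region near Adamts18, 28.0 kb from its TSS, was the widest away from such genes (4690 bp, 9 against 2). At Dlx6 the strongest peaks had signals of 90 and 67, and replicate 2 had 1 hotspot there, of 277 bp. Coding gene starts lay in 29.3% of the 133, against 77.0% of all broad hotspots of replicate 1, and the median strongest signal was 52 against 119.

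In replicate 2 the widest such region lay at Tbx15, a T-box gene of limb mesenchyme (3797 bp, 9 peaks against 4), and the next near Hoxa13, 3.14 kb from its TSS (2992 bp, 8 against 4). Among members, the region near Dab2 differed most in that direction: hotspots of 1017 and 1050 bp in replicate 1 lay in a single hotspot of 3621 bp in replicate 2. The cause of these differences was not tested.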
